A study of Rattus norvegicus with 6 samples.

Results

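The neuron-specific miRNAs miR-9, miR-124, miR-129, miR-137 and miR-138 were followed in PC12 cells, a line derived from a tumour of the rat adrenal medulla whose cells can grow neurites. The members were taken by name, as every arm and copy of miR-9a, miR-9b, miR-124, miR-129, miR-137 and miR-138 that carries a rat miRNA name. They are 12 of 1289 rows in the deposited table, of which 584 are known rat miRNA rows and 705 are miRNAs newly named by the authors. The table holds read counts of small RNA libraries, 3 of a group labelled EN and 3 of a group labelled EC, all from PC12 cells. The labels spell out neither group name and give no treatment, dose or time, while the series title concerns endothelial exosomes, nerve repair and Netrin-1, a secreted guidance protein for axons. Nothing in them says that libraries of a group came from separate cultures, so the tests compare the spread between libraries, some or all of which may be technical.

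A miRNA is cut from a hairpin transcript as 2 short strands, the 5p and 3p arms, and finds its target mRNAs mainly through its seed, bases 2 to 8 from the 5′ end. Neurons are known for high levels of miR-124 and miR-9, which help to shut off non-neuronal programmes during differentiation, and the repressor REST silences their genes in many cells outside the nervous system. In adult brain, miR-137, miR-138 and miR-129 are known for acting on synapses and dendritic spines. Chromaffin cells, from which PC12 cells derive, are neuroendocrine and share the neural crest origin of sympathetic neurons.

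The mature sequences show which members share a seed and which rows could draw on the same reads. RefSeq (build GRCr8) held 10 of the 12 members, and miR-124-3p and miR-124-5p are named only. Each sequence runs 5′ to 3′, with the seed in capitals, and names follow the deposited rows without their rat prefix.
miR-9a-5p: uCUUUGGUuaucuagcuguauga
miR-9a-3p: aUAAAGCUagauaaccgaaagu
miR-9b-5p: uUCGGUUAucuagcuuuau
miR-9b-3p: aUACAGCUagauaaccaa
miR-129-5p: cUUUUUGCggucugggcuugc
miR-129-1-3p: aAGCCCUUaccccaaaaag
miR-129-2-3p: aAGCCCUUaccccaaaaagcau
miR-137-3p: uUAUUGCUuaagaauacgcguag
miR-138-5p: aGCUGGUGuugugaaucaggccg
miR-138-2-3p: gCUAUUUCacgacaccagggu

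The 3p arms of miR-129 have the seed AGCCCUU in common, and none of the other 8 members with a sequence shared its seed with a known row for which RefSeq held one. All 19 bases of miR-129-1-3p equal bases 1 to 19 of miR-129-2-3p, so a read of those bases alone matches both rows. The RefSeq gene table holds 3 miR-9a genes, each overlapped by a miR-9b gene. MiR-9b-3p is the reverse complement of bases 4 to 21 of miR-9a-5p, with 0 mismatches over 18 bases. MiR-9b-5p is likewise the reverse complement of bases 1 to 19 of miR-9a-3p, with 0 mismatches. Read in the same direction, miR-9b-3p also differs from the first 18 bases of miR-9a-3p at 2 positions, and miR-9b-5p from bases 3 to 21 of miR-9a-5p at 2. The sources used here do not say how strand and reads with several matches were handled, so the miR-9b and miR-129-1-3p rows are uncertain. The gene table lists 3 genes for miR-124, 2 each for miR-129 and miR-138 and 1 for miR-137. A shared arm such as miR-129-5p or miR-138-5p therefore sums over its copies.

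Among the members, PC12 cells held most miR-129, then miR-9a, less miR-138, and almost no miR-124 or miR-137. The libraries hold no neurons for comparison. Levels are miRNA counts scaled to the miRNA total of the library, with TMM factors (CPM), and were not divided by length, since the printed mature sequences differ only between 18 and 23 bases. How well each sequence enters a library was not measured. The EN libraries held 4521694 to 5371351 miRNA counts and the EC libraries 6153582 to 6554639.

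MiR-129-5p, known in rat neurons for a part in the downscaling of synapses, was the most abundant member. It stood at 3798, 4127 and 4388 CPM in the EN libraries and at 4389.9, 3821 and 4182 CPM in the EC libraries. The groups overlapped over their whole range, and the level ranked 42nd among the 584 known rows. Its 3p arm from the second gene, miR-129-2-3p, had 885, 940.3 and 710.3 CPM in EN and 812, 616 and 884 CPM in EC. The row of miR-129-1-3p had 22.4, 36.8 and 25.4 CPM in EN and 20.8, 18.2 and 34.05 CPM in EC. Of the reads in both 3p rows, miR-129-1-3p took 2.47 to 3.77 percent in EN libraries and 2.50 to 3.71 percent in EC libraries, with the exact 95 percent intervals of single libraries lying between 2.05 and 4.38 percent. Almost all 3p reads of miR-129 were thus assigned to the row of the second gene in each of the 6 libraries.

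MiR-9a-5p, which targets REST, came next in level and differed more between libraries. Its values were 1253, 1002 and 1029.8 CPM in EN, against 1221, 1639.8 and 1465 CPM in EC. The 2 highest values were both EC libraries, while EC replicate 1 lay just under EN replicate 1, so the groups overlapped. The opposite arm miR-9a-3p, known as miR-9* and for targeting the REST cofactor CoREST, had 150.4, 112.9 and 119.6 CPM in EN and 165.4, 186.6 and 182.0 CPM in EC. All 3 EN values lay below all 3 EC values. The antisense rows were far lower. MiR-9b-3p had 95, 75 and 45 counts in EN and 51, 60 and 90 in EC, and miR-9b-5p had 21, 7 and 22 counts in EN and 21, 20 and 13 in EC. Relative to miR-9a-5p and miR-9b-3p together, the miR-9b-3p row took 0.948 to 1.68 percent of reads in EN and 0.581 to 0.929 percent in EC. That difference between groups was not tested.

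MiR-138-5p, which limits dendritic spine size in rat hippocampal neurons, stood at 239, 232 and 266 CPM in EN and at 231, 218 and 204 CPM in EC. All EN values lay above all EC values, by a narrow margin of less than 1 CPM between the nearest libraries. Its 3p arm from the second gene, miR-138-2-3p, had 12.9, 8.91 and 9.20 CPM in EN and 12.97, 9.74 and 5.80 CPM in EC, with full overlap. That hairpin lies inside Slc12a3 in the RefSeq table, a protein-coding gene for a sodium chloride cotransporter of the kidney.

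MiR-124-3p, by reputation the leading neuronal miRNA, was counted 2, 1 and 5 times in the EN libraries and 1, 5 and 2 times in the EC libraries. MiR-124-5p was counted once in all, in EN replicate 2. Without TMM scaling, both arms together came to 0.372, 0.442 and 1.10 CPM in EN and to 0.155, 0.813 and 0.305 CPM in EC. The highest upper bound of the exact 95 percent intervals was 2.56 CPM in EN and 1.90 CPM in EC. MiR-137-3p had 2 counts in EN replicate 1 and 0 counts in the other 5 libraries. For a count of 0, the exact 95 percent upper bound was 0.816 and 0.810 CPM in EN replicates 2 and 3 and 0.563 to 0.5995 CPM in EC. The exact 95 percent upper bound for the 2 counts in EN replicate 1 was 1.345 CPM. These intervals and limits cover counting error only, since reads from PCR are not independent molecules. MiR-124 was at the edge of detection in both groups, and miR-137 was at that edge in EN and was not detected in EC. At this depth no difference between EN and EC could be seen for either miRNA.

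**Figure D1:**
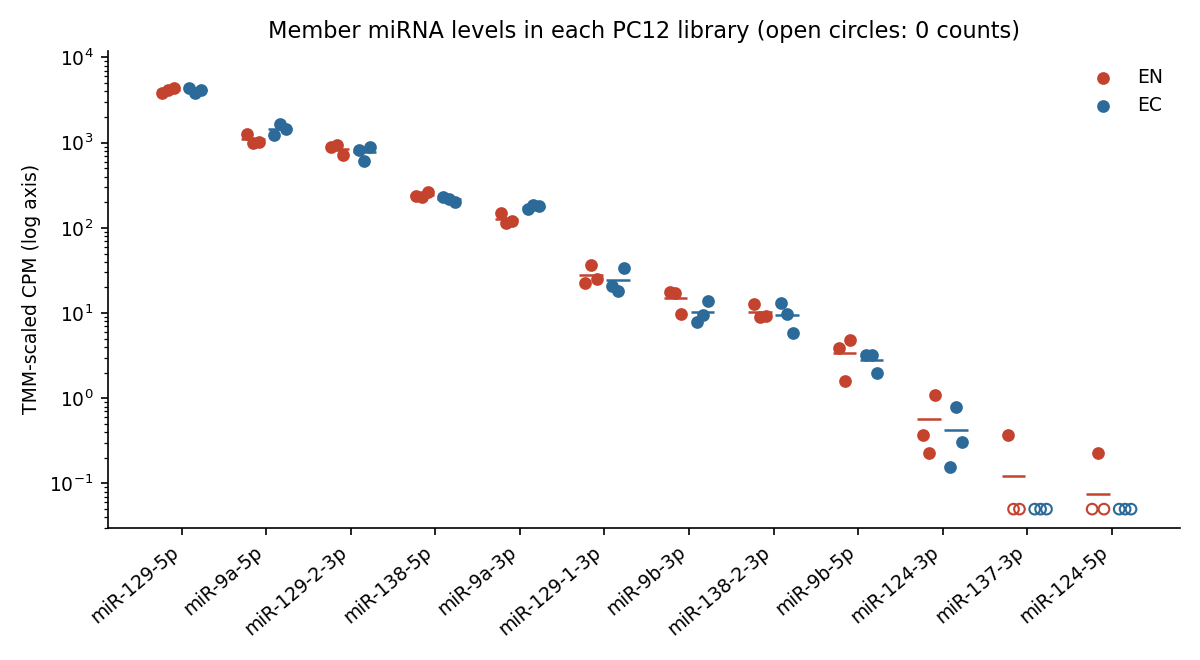
Level of each of the 12 member rows (x axis, ordered by mean) in TMM-scaled CPM on a log axis, with 1 point per library, EN left of EC, and a line at each group mean. The levels run from 3798 CPM or more for miR-129-5p down to open circles at 0 counts for miR-137-3p and miR-124-5p, and the points spread more widely within groups for members below 100 CPM.

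The order of the members was steady across libraries. From miR-129-5p through miR-9a-5p, miR-129-2-3p, miR-138-5p, miR-9a-3p and miR-129-1-3p to miR-9b-3p, each member exceeded the next in 6 of 6 libraries, and the ranges did not overlap. MiR-9b-3p and miR-138-2-3p could not be ordered, since the order held in 4 of 6 libraries. MiR-9b-5p and miR-124-3p followed, again in order in 6 of 6 libraries. MiR-124-3p, miR-137-3p and miR-124-5p had overlapping ranges near 0. Between neighbours the mean level dropped most from miR-129-2-3p to miR-138-5p (3.49-fold) and from miR-9a-3p to miR-129-1-3p (5.81-fold) among members above 10 CPM.

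Among the known rows, 92.8 percent lay below miR-129-5p, 88.2 percent below miR-9a-5p, 77.9 percent below miR-138-5p and 23.1 percent below miR-124-3p. In level, miR-129-5p stood between miR-29b-3p, with a mean of 4235 CPM, and let-7e-5p, with a mean of 3881 CPM over the 6 libraries. The neighbour miR-29b-3p varied far more, with 3317, 2643 and 2473 CPM in EN and 4713, 4716 and 7546 CPM in EC, and had an adjusted p of 0.0515 in edgeR's test. Likeness was measured as the root mean square distance of log2(CPM + 0.5), centred on each row's mean, over 6 libraries, among 161 known rows of 100 CPM or more. The patterns nearest to miR-129-5p were those of miR-126a-3p at 0.062, miR-191a-5p at 0.066 and miR-99a-5p at 0.082. Their adjusted p for EN over EC in edgeR's test was 0.731, 0.918 and 0.649, and all of these values share the same libraries and scaling.

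**Figure D2:**
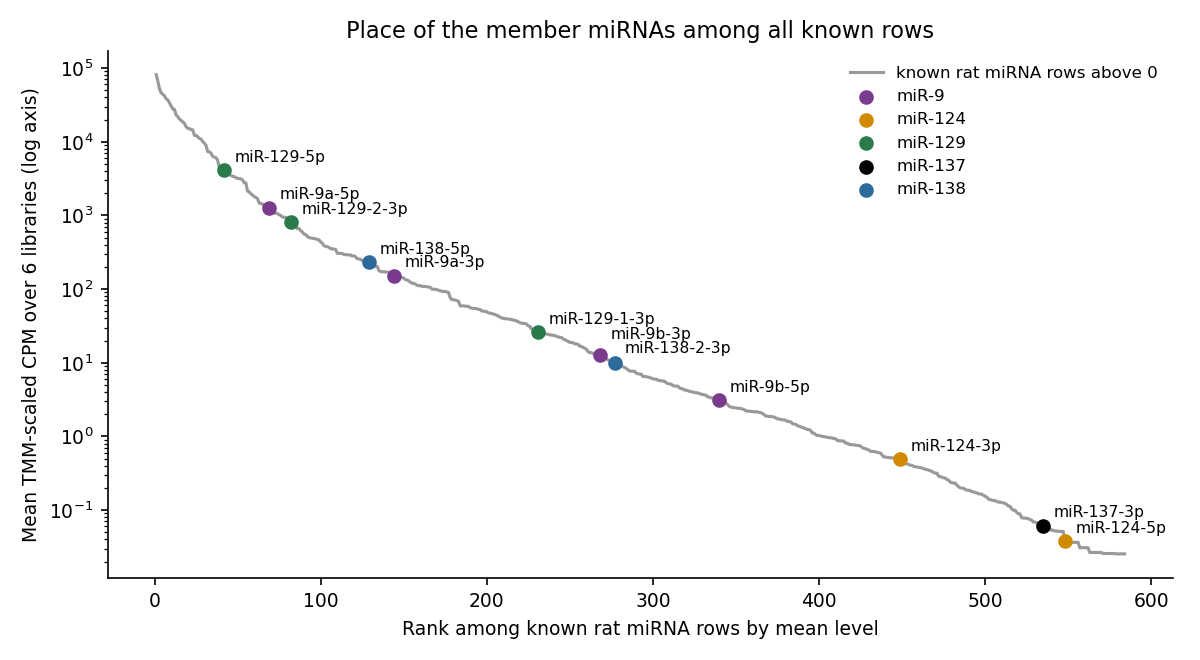
Mean TMM-scaled CPM over 6 libraries (log axis) against rank for all 584 known rows, as a grey line, with the 12 members marked by family. MiR-129-5p and miR-9a-5p sit among the highest 70 rows, while miR-124-3p is 449th and miR-137-3p and miR-124-5p lie further down the tail.

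As a share of all miRNA counts, the 12 members came to 0.642 ± 0.0156 percent in EN and 0.684 ± 0.0174 percent in EC (SD, n = 3 each). MiR-129 made up most of this, with 0.494 ± 0.0201 percent in EN and 0.496 ± 0.0379 percent in EC. MiR-9 had 0.123 ± 0.0178 percent in EN and 0.165 ± 0.0233 percent in EC, and miR-138 had 0.0254 ± 0.00217 percent in EN and 0.0229 ± 0.00183 percent in EC. The share of all members ran from 0.627 to 0.658 percent in EN and from 0.664 to 0.697 percent in EC, without overlap. With TMM scaling the members summed to between 6383 and 6564 CPM in EN and between 6524 and 6972 CPM in EC. On that scale the groups overlapped, and no test was made on the share or the sum.

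Lists of miRNAs typical of other cell types put these levels in scale. Other nervous system miRNAs, 52 rows for 32 of 35 names, summed to between 64177 and 67627 CPM in EN and between 51950.0 and 66150.0 CPM in EC. Most of that came from miR-204-5p, which is also abundant in epithelia of eye and choroid plexus, and from miR-149-5p. MiR-204-5p stood at 32602, 35130.0 and 29671 CPM in EN and at 32488, 18371 and 34133 CPM in EC, and miR-149-5p at 11726, 11928 and 12409 CPM in EN and at 10071, 12427 and 11545 CPM in EC. The brain-enriched miR-128-3p and miR-153-3p, 79th and 78th by mean level, were near miR-129-2-3p, the 82nd. Other rows of that list lay far from them in both directions. MiR-218a-5p ranked 29th and miR-384-5p 40th, above miR-129-5p. By contrast, miR-132-3p had 4, 18 and 24 counts in EN and 11, 8 and 9 in EC. MiR-488-3p had 0, 0 and 4 counts in EN and 2, 4 and 3 in EC. Neuroendocrine and chromaffin miRNAs, with rows for 6 of 6 names, summed to between 1256 and 1512 CPM in EN and between 995 and 1159 CPM in EC. Nearly all of it was miR-7a-5p, at 1488, 1306 and 1235 CPM in EN and 973, 1058 and 1134 CPM in EC, and the second row by level was miR-182 with means of 13.9 CPM in EN and 12.6 CPM in EC. MiR-7a-5p lay above miR-9a-5p in every EN library, though their EN ranges overlapped, and below it in every EC library. That change of order was not tested. The endocrine miR-375-3p had 12, 13 and 14 counts in EN and 18, 20 and 13 counts in EC.

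Markers of glia and of cells outside the nervous system were not all lower than the members. The endothelial list, 3 rows for 2 of 2 names, summed to between 1086 and 1228 CPM in EN and between 1064 and 1144 CPM in EC, almost all of it miR-126a-3p. That endothelial miRNA stood at 1054, 1053 and 1199.8 CPM in EN, within the range of miR-9a-5p there, and at 1077, 1007 and 1061 CPM in EC, below every EC value of miR-9a-5p. Glial miRNAs, 6 rows for 3 of 3 names, summed to between 908 and 975 CPM in EN and between 1092 and 1144 CPM in EC, led by both arms of miR-338. Blood cell miRNAs, 8 rows for 6 of 6 names, reached 1128 to 1153 CPM in EN and 1108 to 1481 CPM in EC. Most of that was miR-155-5p and then miR-150-5p. MiR-451-5p had 165, 86 and 90 counts in EN and 33, 59 and 64 in EC. MiR-142-3p had 7, 7 and 2 counts in EN and 14, 7 and 10 in EC, while miR-223-3p and miR-144-3p had at most 3 counts in any library. Smooth muscle and fibroblast miRNAs, 6 rows for 4 of 4 names, came to 214 to 222 CPM in EN and 164 to 186 CPM in EC, from miR-199a-3p and miR-199a-5p above all. Skeletal and heart muscle miRNAs, 7 rows for 6 of 7 names, came to 153 to 193 CPM in EN and 188 to 199 CPM in EC, led by miR-499-5p and then miR-206-3p, with miR-1-3p and miR-208a-5p at 0 counts in 5 of 6 libraries each. MiR-206-3p stood at 1.66, 1.60 and 1.10 CPM in EN and at 28.9, 1.44 and 3.21 CPM in EC, so that EC replicate 1 stood apart. The liver list, both arms of miR-122, summed to between 8.69 and 14.4 CPM in EN and between 5.95 and 9.74 CPM in EC. Its miR-122-5p had 78, 36 and 62 counts in EN and 53, 61 and 39 counts in EC, so each library held more reads of this liver miRNA than of miR-124-3p. The muscle miR-133a-3p, at 3, 3 and 3 counts in EN and 9, 2 and 6 in EC, overlapped miR-124-3p in its counts. Whether reads of other cells or sources contribute to any of these rows was not tested, and in bulk libraries fewer expressing cells cannot be told apart from less RNA per cell.

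**Figure D3:**
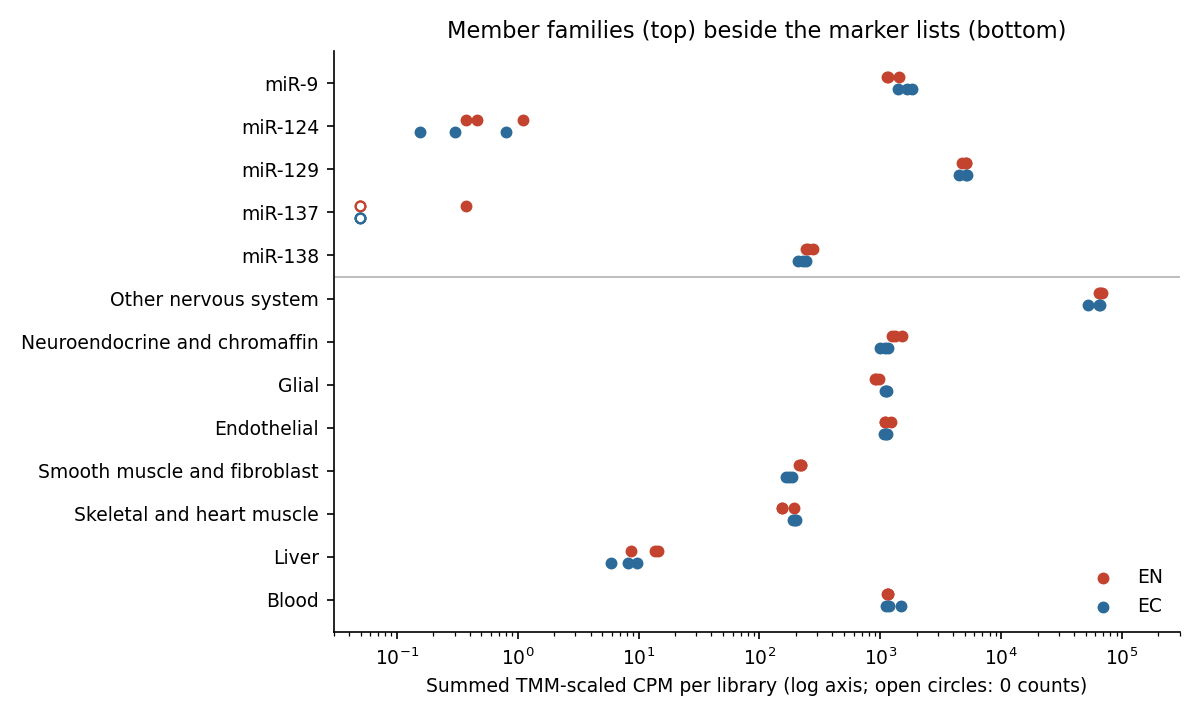
Summed TMM-scaled CPM per library (x axis, log) for the 5 member families above the line and the 8 marker lists below it, with EN points above EC points in each row and open circles for 0 counts. MiR-129 lies above the glial, endothelial and blood lists, and miR-124 and miR-137 lie below the liver list. MiR-9 overlaps the neuroendocrine and chromaffin, endothelial and blood lists in EN and the blood list in EC.

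EN and EC libraries did not differ past the threshold in any of the 9 members that passed the filter on low counts. The comparison used edgeR's quasi-likelihood test, adjusted by Benjamini-Hochberg over 628 rows, and called a row at an adjusted p under 0.05. The 3 members left out by the filter were miR-124-3p, miR-124-5p and miR-137-3p. Over all tested rows 25, or 3.98 percent, were called, 13 higher and 12 lower, and 2 to 39 rows with 1 library left out. The unadjusted p was under 0.05 for 2 of the 9, miR-9a-5p and miR-9a-3p, where 21.7 percent of all rows reached it. DESeq2 and limma-voom likewise called 0 members and had an unadjusted p under 0.05 for the same 2. In edgeR, 0 members reached it without EN replicate 2, EC replicate 2 or EC replicate 3, miR-9b-3p alone did so without EN replicate 3, and miR-9a-3p alone did so with known rows only.

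Both arms of miR-9a had negative fold changes of similar size. MiR-9a-5p averaged 1095 ± 137.7 CPM in EN and 1442 ± 210.3 CPM in EC (SD, n = 3 each), a log2 fold change of -0.40 (SE 0.15) with an adjusted p of 0.176. MiR-9a-3p averaged 127.6 ± 20 CPM in EN and 178.0 ± 11.2 CPM in EC, a log2 fold change of -0.48 (SE 0.16) with an adjusted p of 0.125 by the same edgeR test. MiR-9a-3p was the 1 member of 9 whose EN values all lay below its EC values, which held for 14.6 percent of tested rows. The sign was negative for both arms in all 16 alternatives computed for each. With 1 library left out, the adjusted p in edgeR ran from 0.131 to 0.465 for miR-9a-5p and from 0.0696 to 0.372 for miR-9a-3p, lowest without EN replicate 1 and highest without EN replicate 2 for both.

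The other members showed smaller or less certain differences. MiR-129-5p averaged 4104 ± 296 CPM in EN and 4131 ± 288 CPM in EC (SD, n = 3 each), with a log2 fold change of -0.0094 (SE 0.10), the value nearest 0 among the members. MiR-138-5p averaged 245.5 ± 18.2 CPM in EN and 217.5 ± 13.6 CPM in EC, with a log2 fold change of 0.17 (SE 0.13) and an adjusted p of 0.492 by edgeR's test. It was the 1 member whose EN values all lay above its EC values, as in 15.0 percent of tested rows. MiR-129-2-3p, at 0.13 (SE 0.18), miR-129-1-3p, at 0.21 (SE 0.29), and miR-138-2-3p, at 0.13 (SE 0.33), had log2 fold changes below their standard errors. Leaving out 1 library moved miR-129-2-3p between 0.020 and 0.26, lowest without EC replicate 2, and miR-129-1-3p between 0.0076 and 0.54, lowest without EN replicate 2, and both were highest without EC replicate 3. The antisense rows miR-9b-3p, at 0.51 (SE 0.31), and miR-9b-5p, at 0.30 (SE 0.44), had the sign opposite to that of miR-9a, and that contrast was not tested. The median log2 fold change was 0.13 over the 9 tested members and 0.02 over all 628 tested rows.

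The size of the miR-9a difference depended on what counts are scaled to. MiRNA counts made up 25.0 to 26.9 percent of the library total that the deposited RPM values imply in EN and 30.9 to 32.6 percent in EC. In deposited RPM, miR-9a-5p stood at 339, 242 and 263 in EN and at 401, 538 and 452 in EC. MiR-129-5p had 1026.8, 998 and 1122 RPM in EN and 1442, 1253 and 1292 RPM in EC. The share of all rows whose groups stood apart in RPM was not counted. With those totals as the divisor, edgeR called both arms of miR-9a lower in EN, miR-9a-5p at -0.72 (SE 0.18, adjusted p = 0.0341) and miR-9a-3p at -0.80 (SE 0.18, adjusted p = 0.0286). This divisor shifted the log2 median over all rows to -0.30, against 0.02 with TMM scaling, and gave 13 higher and 88 lower calls, the lower ones being 14.2 percent of 619 rows. Relative to the median of all rows, miR-9a-5p stood at -0.42 under either scaling and miR-9a-3p at -0.50. The log2 fold changes of miR-129-2-3p, miR-129-1-3p, miR-138-5p, miR-138-2-3p and miR-9b-5p were positive with TMM scaling and negative with the implied totals, without passing under either.

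**Figure D4:**
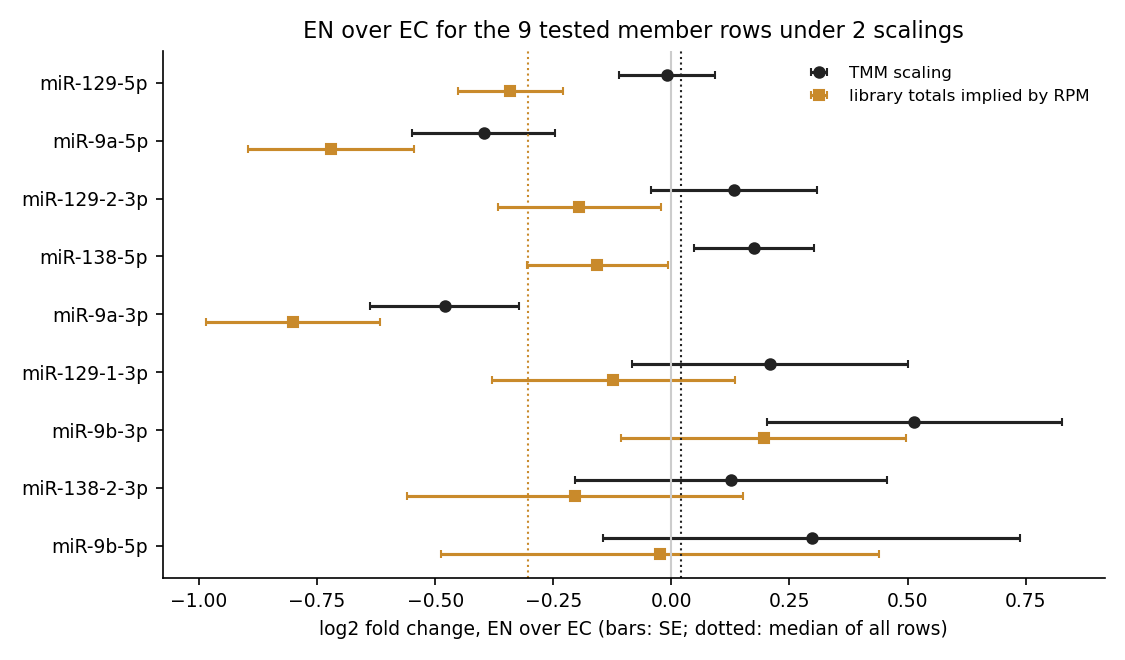
Log2 fold change of EN over EC (x axis) with its SE for the 9 tested member rows, by TMM scaling (black circles) and by library totals implied by RPM (ochre squares), with dotted lines at the median of all rows under each. Both arms of miR-9a lie left of the dotted line of either scaling, and the other members lie near it or to its right.

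The balance of the arms, which reflects which strand of the hairpin is kept, was stable in miR-9a. The log2 ratio of 5p to 3p counts of miR-9a was 3.06, 3.15 and 3.10 in EN and 2.88, 3.13 and 3.01 in EC, so the 5p arm was 7.38 to 8.86 times as abundant in every library. For miR-129, with both 3p rows summed, it was 2.07, 2.08 and 2.58 in EN and 2.40, 2.59 and 2.19 in EC. For miR-138 the 5p row sums over 2 genes while the only 3p row belongs to the second, so its ratio is no balance within 1 hairpin. It was 4.19, 4.66 and 4.82 in EN and 4.14, 4.46 and 5.10 in EC, with 3p counts as low as 38. The median log2 ratio over 123 miRNAs with both arms counted was 1.53. In limma's test over these 123 pairs, 0 of the 3 member pairs passed after Benjamini-Hochberg adjustment, with adjusted p of 0.754, 0.738 and 0.994, unadjusted p of 0.549, 0.510 and 0.980, and differences of 0.094 (SE 0.15), -0.15 (SE 0.22) and -0.0084 (SE 0.31). Over all pairs 4.88 percent passed. In miR-9b the 3p row was the larger in each library, the reverse of miR-9a, and that 3p row is the one complementary to miR-9a-5p.

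Beside the members, 4 of 31 tested rows of other nervous system miRNAs passed edgeR's test, 3 higher and 1 lower in EN, where 3.98 percent of all rows passed. With known rows alone, again 4 of 31 rows of the list passed, beside 24 of 380 known rows. MiR-128-3p had 1169, 1196 and 1119 CPM in EN and 748, 722 and 687 CPM in EC, a log2 fold change of 0.69 (SE 0.10, adjusted p = 0.0177), with no overlap. MiR-139-5p, at 0.98 (SE 0.15, adjusted p = 0.0187), and miR-598-3p, at 0.67 (SE 0.14), were the other rises, and miR-190a-5p, at -1.05 (SE 0.22), was the fall, both with an adjusted p of 0.0471. The list's median was -0.04, beside 0.02 over all rows, and the list was drawn up with earlier results of these data known. Scaled to the totals behind RPM, 1 row rose and 4 fell among 32, where 13 rose and 88 fell among all 619. Without EC replicate 3, EN replicate 2 or EN replicate 3, 0 of 32 rows of the list passed. Over all rows, these runs called 8 of 637, 3 of 655 and 2 of 656. Without EC replicate 1, 1 of 31 passed, beside 10 of 635 over all rows. Without EC replicate 2, 2 of 32 passed, beside 39 of 636, and without EN replicate 1, 5 of 32, beside 34 of 652.

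Of the other lists, miR-219b at 1.04 was the rise and miR-338-3p at -0.85 the fall among 5 tested glial rows. MiR-126a-5p at -0.86 fell among 2 endothelial rows, and miR-451-5p at 1.52 rose among 4 blood rows. All are on the log2 scale with an adjusted p of 0.0471 by edgeR's test, which called 3.98 percent of all rows. The more abundant arms miR-126a-3p and miR-338-5p stood at 0.07 and -0.21, with adjusted p of 0.731 and 0.304 in that test. No row passed among 6 neuroendocrine, 3 smooth muscle and fibroblast, 1 muscle and 1 liver rows tested. The part that any such marker difference plays in the values of miR-9a was not tested.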

How the data were processed

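The deposited read counts per mature miRNA, in whole numbers, and the deposited RPM values beside them came from 1 table made by the authors. Per the submitters' processing notes, HISAT2 2.0.5 and Rnor 6.0 were used, while counting program, annotation and strand rule are not given. Each RPM equals count over 1 library total within 0.0015 in 100 percent of values. What reads that total of 17861218 to 21207786 holds is not given.

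Members and lists were chosen with earlier results of these data known. EN was compared with EC in edgeR 4.0.16 (R 4.3.3), with filterByExpr, TMM factors and the robust quasi-likelihood test, adjusted by Benjamini-Hochberg over 628 rows. An SE is the absolute log2 fold change over the square root of F. Arm use was tested by limma 3.58.1 on log2((5p + 1)/(3p + 1)), where each arm averaged at least 20 counts. DESeq2 1.42.0 and limma-voom were alternatives. Tables and exact binomial (Clopper-Pearson) intervals used pandas 2.3.3 and scipy 1.17.1 in Python 3.11.15, and figures used matplotlib 3.10.9. The main edgeR test and the limma test of arm use were first tried on simulated data. Named were all members, the rows nearest to miR-129-5p in level and in pattern, and of each list the 2 most abundant rows and all that passed. MiR-153-3p, miR-375-3p, miR-133a-3p, miR-1-3p, miR-208a-5p, miR-223-3p and miR-144-3p were added after their values were seen. So were miR-218a-5p, miR-384-5p, miR-132-3p, miR-488-3p and miR-142-3p.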

Additional observations from a re-analysis of the deposited data

How the results depend on the processing

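Of the tested members, 0 were called in 14 of 15 alternatives, and 2 with library totals implied by RPM, namely both arms of miR-9a. The members tested numbered 9, except 12 without a filter and 7 with a mean of 10 CPM. Calls over all rows, 25 with TMM factors, numbered 101 with implied totals, 44 without a filter, 70 with DESeq2 and 16 with limma-voom. They ranged from 2 to 39 with 1 library left out, with 3 without EN replicate 2, 2 without EN replicate 3, and 10, 39 and 8 without EC replicates 1, 2 and 3 in turn. The 4 calls among other nervous system miRNAs became 2 with limma-voom, and 0 to 5 with 1 library left out. With a replicate block there were 2 calls over all rows and 0 among members and in that list. The deviations of EN and EC libraries that share a number had correlations of 0.086, -0.039 and 0.015, so the numbers were not taken as pairs. Signs turned only in values that did not pass. With implied totals the log2 fold changes became -0.19 for miR-129-2-3p, -0.16 for miR-138-5p, -0.12 for miR-129-1-3p, -0.20 for miR-138-2-3p and -0.024 for miR-9b-5p. MiR-129-5p became 0.067 with known rows alone and ranged from -0.0590 to 0.0438 without 1 library. So did miR-138-2-3p from -0.11 to 0.43, miR-9b-5p from -0.0125 to 0.66 and the arm difference of miR-138 from -0.22 to 0.26. Apart from the divisor itself, the cause was not tested. Depth limits miR-124 and miR-137, at 5 counts or fewer per library.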
